A study of Gallus gallus with 5 samples.

Results

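The B cell receptor is an antibody molecule at the cell surface, bound to the signalling chains CD79A and CD79B. When antigen clusters the receptor, the SRC family kinase LYN phosphorylates these chains, SYK binds to them, and SYK and BTK act through the adaptor BLNK on phospholipase C gamma 2 (PLCG2), which releases calcium. VAV3 activates small GTPases of the RAC family, PIK3AP1 (BCAP) brings in phosphoinositide 3-kinase, GRB2 links the receptor to RAS, and INPP5D (SHIP1) removes a phosphate from the lipid that phosphoinositide 3-kinase makes. Deletions of many of these genes in DT40, a line of chicken B cells whose genes are readily disrupted by homologous recombination, were used to order the pathway.

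The expression of these 10 genes was read from 5 Affymetrix chicken arrays of DT40 cells. The genes were chosen by name for their role at the receptor, with earlier results of these data known. A probe set was counted for a gene where its only symbol in the platform's probe table was that of the gene. This gave 22 probe sets for 9 genes, of 13009 genes with such a probe set. CD79B, BTK and PIK3AP1 had 1 probe set each, SYK and INPP5D had 2, LYN, VAV3 and GRB2 had 3, and PLCG2 had 6. No probe set carried the symbol BLNK. RefSeq (GRCg7b) lists BLNK as a synonym of the gene with the symbol SH2D6, whose probe set is given separately below.

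The arrays held total RNA of wild-type DT40 cells (WT, 2 arrays), of DT40 cells deleted for histone H1L (1 array) and of DT40 cells deleted for histone H1R (2 arrays). H1L and H1R are variants of the linker histone H1, which binds the DNA between nucleosomes. All cells were grown in the same medium to exponential growth, and the study asked which genes depend on a single H1 variant. The labels do not say whether the 2 arrays of a group came from separate cultures or clones, nor how many clones the deletions represent, so the p-values below reflect the spread of arrays and possibly technical error alone. By a code in the labels, the first replicates of WT and H1R share a day, and the second replicates share a later day with the H1L array. Each array reads a whole culture, so fewer cells with a transcript and less of it per cell cannot be told apart.

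The probe sets of the linker histones did not settle the labels. The WT signals of HIST1H111L were 1320 and 2034.8, beside 2295.3 for the H1L array and 981.8 and 2372 for H1R. The WT signals of HIST1H111R were 36.1 and 39.4, beside 42.2 for the H1L array and 28.9 and 7 for H1R. Neither log2 difference of a deletion from WT reached an adjusted p under 0.05 in limma. For HIST1H111L in H1L it was 0.48 ± 0.51 (SE, limma adjusted p = 0.954). For HIST1H111R in H1R it was -1.05 ± 0.52 (SE, limma adjusted p = 0.569). Whether these probe sets lie in the deleted part is not given in the sources used here, and H1L and H1R below mean the arrays labelled so. Median signals lay between 19.3 and 22.4 per array. The background limit of an array, the brightest of 23 control probe sets that match no chicken transcript, lay between 18 and 33.6. The HIST1H111R signal of 7 on the second H1R array lay below its limit of 33.6, so the size of that difference depends on the constant added before the log2. The actin signal at its 3' end over that at its 5' end, a sign of RNA quality, was 2.81 and 3.87 on the WT and H1R arrays of the first day, and 2.02, 2.25 and 2.01 on the WT, H1R and H1L arrays of the second.

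Of 16 B cell marker genes, 11 had a probe set, of which 8 were above the background limit on all 5 arrays, among them EBF1, IKZF1 and POU2AF1. RAG2 was above it on 0 arrays, BLK on 1 and CXCR5 on 2. The immunoglobulin light chain gene (IGLL1) gave 2282.5 on replicate 1 of WT and between 8302.2 and 11330 on the other 4 arrays. Of 11 T cell marker genes with a probe set, 5 were above the limit on no array (CD4, LCK, ZAP70, GATA3 and BCL11B) and 2 on all, the T cell receptor chains CD3D and CD247. The summed T cell signal was 2607.6 and 4397.1 in WT, 2288.8 in H1L, and 1604.2 and 1048.1 in H1R, most of it from CD3D. In the same list CD5 went the other way, at 17.7 and 36.1 in WT, 229.7 in H1L, and 246 and 208.3 in H1R. Of 9 myeloid genes 1 was above the limit on all arrays (SPI1, which B cells also express), of 4 erythroid genes 0, and of 10 fibroblast genes 3. The summed myeloid signal was 1204.2 and 1540.6 in WT, 2282.6 in H1L, and 1835.4 and 2252.1 in H1R, with MMP9 at 24.1 and 61.2 in WT, 793.3 in H1L, and 246.2 and 389.1 in H1R. The summed fibroblast signal was 1463 and 1955.9 in WT, 928.5 in H1L, and 345.5 and 599.6 in H1R. Within that list vimentin (VIM) gave 1276.9 and 1739 in WT, 657.9 in H1L, and 74.5 and 128.5 in H1R, while COL1A2 gave 6 and 26.5 in WT, 102.4 in H1L, and 98.3 and 285.1 in H1R. Their part in the results below was not tested.

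Of the receptor's signalling chains, CD79A had no tested probe set under its symbol, and CD79B was lower in H1R than in WT. Its probe set (chromosome 27) gave a signal of 3263.8 and 3744.7 in WT, 2021.7 in H1L, and 1216.1 and 1347.6 in H1R. Both H1R arrays lay below the H1L array, and the H1L array lay below both WT arrays. The mean was 3504 ± 340.0 (SD, n = 2) in WT and 1282 ± 93.0 (SD, n = 2) in H1R. On the scale of log2(signal + 5.7), used for all fold changes here, the difference was -1.45 ± 0.22 (SE, 95% interval -1.94 to -0.95), a fall of 2.72-fold. Its adjusted p was 0.02 in limma after Benjamini-Hochberg adjustment over all 23053 probe sets tested. The difference was -1.42 between the arrays of the first day and -1.47 between those of the second. With the day as a block the limma adjusted p was 0.000984. For H1L against WT the CD79B difference was -0.79 ± 0.26 and did not pass the threshold (limma adjusted p = 0.567, or 0.15 with the day as block), and H1L lay 0.66 ± 0.26 above H1R (limma adjusted p = 0.888).

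With only 1 array left in a group, the fit assumes that it varies like the others, and the call for CD79B in H1R was then lost without WT replicate 1 (-1.54, limma adjusted p = 0.117), without WT replicate 2 (-1.35, 0.133) and without H1R replicate 1 (-1.37, 0.0953), though not without H1R replicate 2 (0.043). It was lost also with no filter on dim probe sets (limma adjusted p = 0.0952) and without a trend in the variance (0.161). The sign was the same under all 14 alternatives, which adds little. The filters, the variance trend and the block left the difference at -1.45. Both H1R arrays lay below both WT arrays, so leaving out 1 array could not reverse it.

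**Figure D1:**
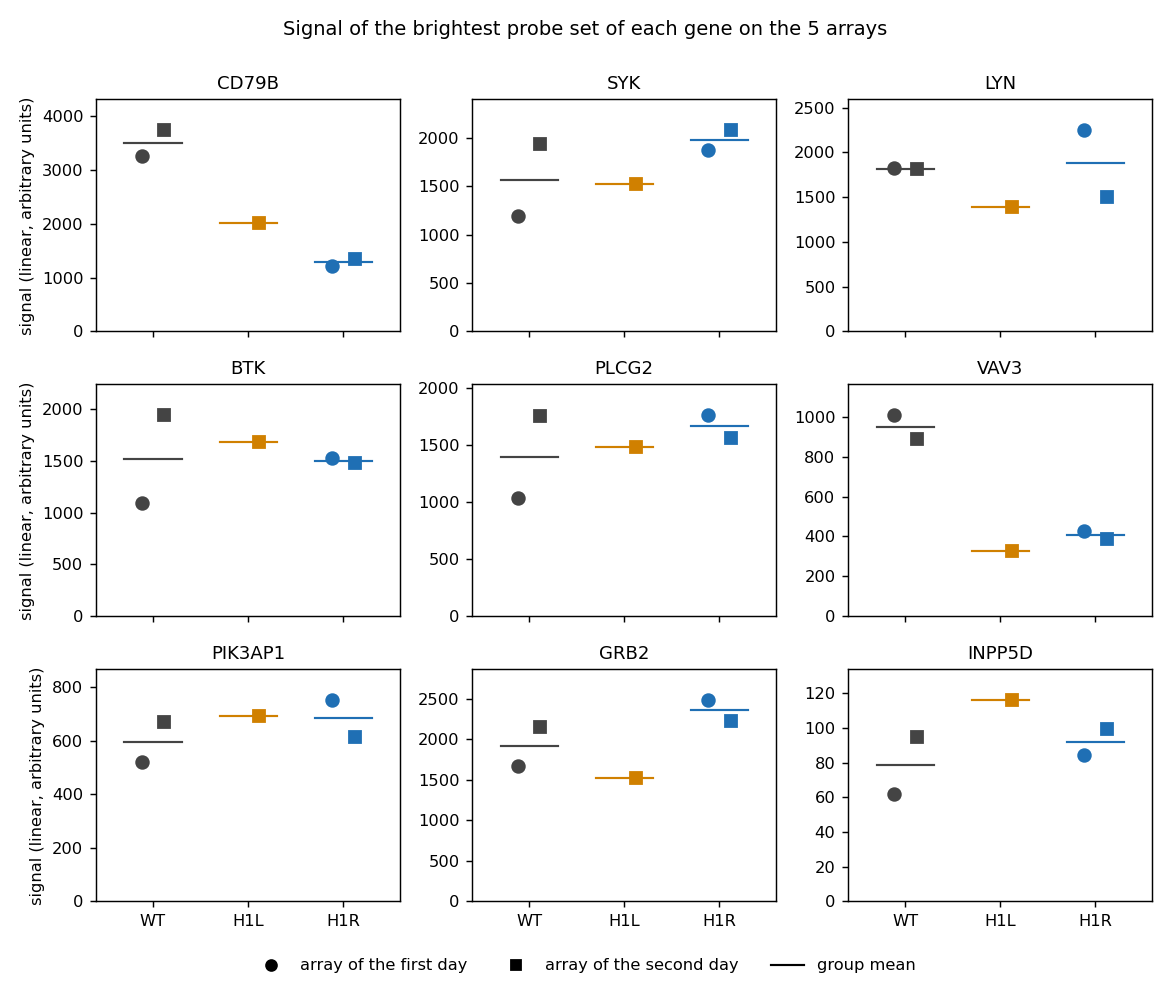
Signal (linear scale, arbitrary units) of the brightest probe set of each of the 9 genes on the 5 arrays, by genotype. Circles are arrays of the first day, squares arrays of the second, and lines group means. CD79B is at 3263.8 or above in WT and at 1347.6 or below in H1R, VAV3 is at 427.1 or below in H1L and H1R, and in SYK, BTK and PLCG2 the WT arrays lie as far apart as the groups.

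The tyrosine kinases of the receptor did not pass the threshold in any comparison. SYK, which binds the phosphorylated chains, gave 1194.7 and 1937.5 in WT, 1524 in H1L, and 1873.1 and 2081.1 in H1R on its brighter probe set (chromosome Z). The H1R arrays overlapped the WT arrays and the H1L array lay between the WT arrays, with a difference of 0.37 ± 0.28 for H1R against WT (95% interval -0.27 to 1.02, limma adjusted p = 0.757) and of 0.0023 for H1L against WT (95% interval -0.79 to 0.79). The other SYK probe set gave 142.7 and 202.3 in WT, 171.3 in H1L, and 131.3 and 179.4 in H1R, a difference of -0.14 for H1R against WT.

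BTK, the TEC family kinase that phosphorylates PLCG2, lies on chromosome 4. Its probe set gave 1086.7 and 1941 in WT, 1680.3 in H1L, and 1525.4 and 1474.6 in H1R. The H1L array and both H1R arrays fell between the 2 WT arrays. The difference was 0.046 ± 0.30 for H1R (95% interval -0.66 to 0.75, limma adjusted p = 0.985) and 0.21 ± 0.37 for H1L (95% interval -0.65 to 1.07).

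LYN, the SRC family kinase that starts the cascade and also phosphorylates inhibitory receptors, had 3 probe sets (chromosome 2). The brightest gave 1825.2 and 1810.9 in WT, 1389.8 in H1L, and 2253.2 and 1505.5 in H1R. The WT arrays lay between the H1R arrays, and the H1L array was the lowest of the 5 (0.019 for H1R, 95% interval -0.58 to 0.62, and -0.39 ± 0.32 for H1L, limma adjusted p = 0.928). A second LYN probe set gave 182.3 and 88.6 in WT, 42 in H1L, and 168.3 and 64 in H1R. On this one the 3 arrays of the second day were all below those of the first, H1L was the lowest, and the difference of H1L from WT was -1.48 ± 0.63 over all arrays (limma adjusted p = 0.717) but -0.98 against the WT array of the same day. The third LYN probe set, at 39.6 and 17 in WT, 15.4 in H1L, and 47.7 and 18.6 in H1R, was above the background limit only on the 2 arrays of the first day. On the second day all 3 arrays of this probe set were at background, so the genotypes could not be compared there.

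Of the adaptors, GRB2, which binds phosphorylated tyrosines and the RAS activator SOS, gave 1665.9 and 2158.3 in WT, 1526.7 in H1L, and 2489 and 2228.3 in H1R on its brightest probe set (chromosome 18). Both H1R arrays were above both WT arrays and the H1L array was below all 4. The difference was 0.31 ± 0.23 for H1R (limma adjusted p = 0.756) and -0.31 ± 0.28 for H1L (limma adjusted p = 0.941), and H1L differed from H1R by -0.62 ± 0.28 (limma adjusted p = 0.888). The other GRB2 probe sets did not repeat the higher signal in H1R. One gave 997.1 and 1404.1 in WT, 845.5 in H1L, and 761.3 and 1189.4 in H1R (-0.31 for H1R), and one gave 177.4 and 272.6 in WT, 219.4 in H1L, and 133.1 and 356.5 in H1R (-0.0097 for H1R). On both, each second-day array exceeded the first-day array of its genotype.

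PIK3AP1, the adaptor through which phosphoinositide 3-kinase reaches the receptor, gave 521 and 670.9 in WT, 691.2 in H1L, and 753.1 and 613.6 in H1R (chromosome 6). The H1R and WT arrays overlapped and the H1L array was above both WT arrays, with a difference of 0.20 ± 0.29 for H1R (limma adjusted p = 0.901) and 0.22 ± 0.35 for H1L (limma adjusted p = 0.975).

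The probe set named SH2D6, of which BLNK is a RefSeq synonym, was bright and lies on chromosome 6. It gave 2834.2 and 4060.3 in WT, 2989.3 in H1L, and 2488.5 and 2816.7 in H1R. Both H1R arrays were below both WT arrays and the H1L array lay between the WT arrays. The difference for H1R was -0.36 ± 0.23, short of the threshold (limma adjusted p = 0.711, or 0.299 with the day as block), and for H1L it was -0.18 ± 0.29. It is not counted among the 22 probe sets, since the probe table does not name it BLNK.

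VAV3, the exchange factor for RAC GTPases, had the lowest difference of H1L from WT among the brightest probe sets of the 9 genes, and was low in H1R on all 3 of its probe sets (chromosome 8). The brightest gave 1009.5 and 885.7 in WT, 329 in H1L, and 427.1 and 387.3 in H1R. The second gave 996.4 and 870 in WT, 332.2 in H1L, and 372 and 347.7 in H1R. The third gave 316 and 211.3 in WT, 87.5 in H1L, and 72.3 and 74.6 in H1R. On every one of the 3, the H1L array and both H1R arrays lay below both WT arrays. The probe sets read the same gene, and the second is of the design type that can share probes with other transcripts, so they are not 3 separate observations.

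For H1R against WT the VAV3 differences were -1.21 ± 0.27, -1.36 ± 0.28 and -1.74 ± 0.33 in that order. None passed the threshold in limma without a block (adjusted p = 0.117, 0.0753 and 0.061), and all 3 passed with the day as block (limma adjusted p = 0.0112, 0.00611 and 0.00717). Without the block, the second VAV3 probe set also passed under quantile, median and trimmed mean scaling, and the third under median and trimmed mean scaling and with a pseudocount of 32. For H1L against WT the VAV3 differences were -1.51 ± 0.34, -1.47 ± 0.34 and -1.50 ± 0.41 and did not pass, with a limma adjusted p of 0.266, 0.289 and 0.43, or of 0.0662, 0.0764 and 0.185 with the block. H1L and H1R themselves differed by -0.30 ± 0.34 on the brightest VAV3 probe set (95% interval -1.08 to 0.47), with no call. The H1R and H1L comparisons share the WT arrays.

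PLCG2, the phospholipase that turns receptor signals into calcium release, lies on chromosome 11. Its brightest probe set gave 1037.8 and 1755.5 in WT, 1483.5 in H1L, and 1767.3 and 1562.2 in H1R. WT replicate 1 was the lowest array and the others overlapped, with a difference of 0.30 ± 0.29 for H1R (95% interval -0.38 to 0.98, limma adjusted p = 0.834) and 0.14 ± 0.36 for H1L (limma adjusted p = 0.989). The second PLCG2 probe set was nearly level, at 501.7 and 512.2 in WT, 516.6 in H1L, and 568 and 490.6 in H1R.

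The remaining 4 probe sets of PLCG2 separated the days and not the genotypes. One gave 240.6 and 635.7 in WT, 582.3 in H1L, and 209.3 and 665.1 in H1R, so the arrays of the second day exceeded those of the first by 1.38 (log2) in WT and 1.64 in H1R. The other 3 PLCG2 probe sets of this kind exceeded the first day by 0.98, 0.81 and 1.02 in WT and by 1.39, 1.01 and 0.70 in H1R. On all 4, H1L lay with the other arrays of the second day, and the H1R against WT difference was between -0.49 and -0.066, none past the threshold in limma. On the brightest probe set the days differed by 0.76 in WT and -0.18 in H1R. The 3' to 5' ratio of actin was higher on both arrays of the first day, as given above, and its part in this split was not tested.

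INPP5D, the lipid phosphatase that limits phosphoinositide signals, was read by 2 dim probe sets (chromosome 9), both above the background limit on all 5 arrays. The brighter gave 62.2 and 95.1 in WT, 116.4 in H1L, and 84.4 and 99.5 in H1R, and the dimmer gave 47.3 and 70.3 in WT, 84.3 in H1L, and 42.8 and 85.2 in H1R. The H1L array was above both WT arrays on both, and the H1R arrays overlapped WT. The INPP5D difference was 0.23 ± 0.34 for H1R (limma adjusted p = 0.901) and 0.56 ± 0.42 for H1L (limma adjusted p = 0.911) on the brighter probe set.

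**Figure D2:**
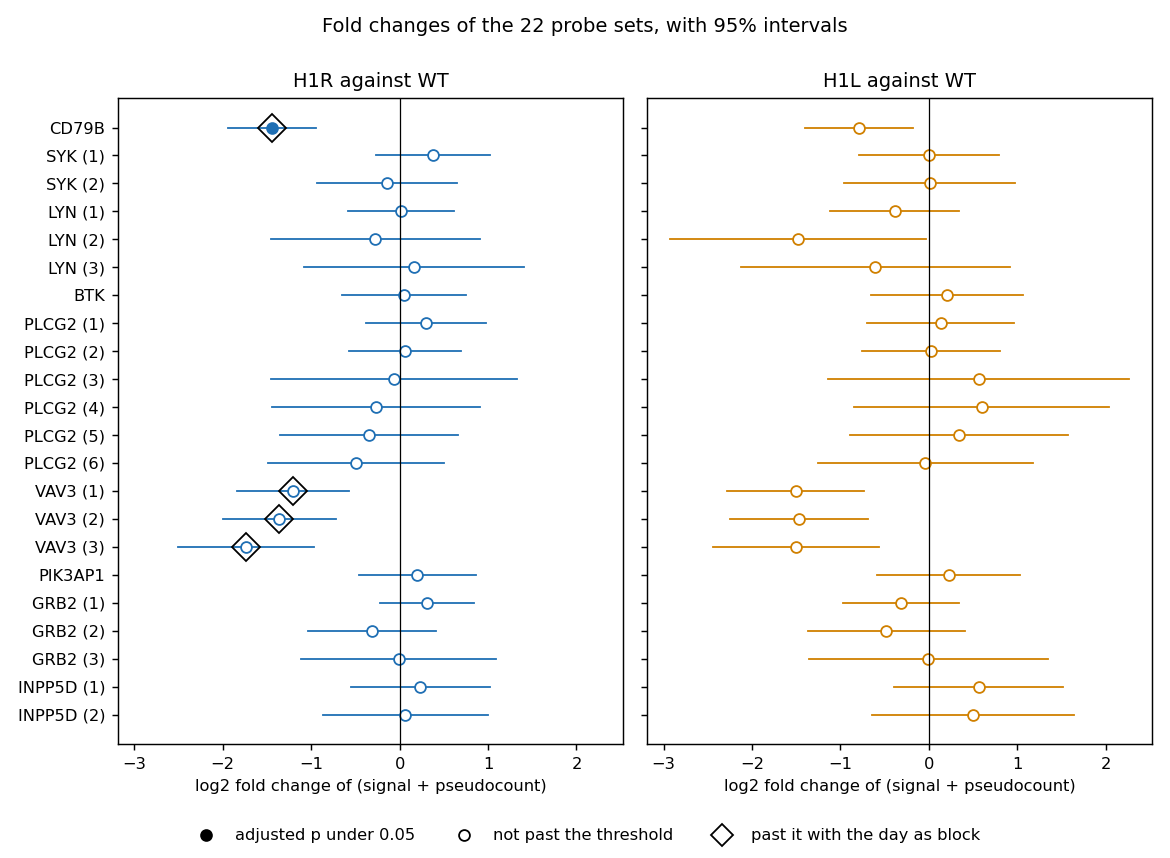
Log2 fold change of (signal + pseudocount) with its 95% interval for the 22 probe sets, H1R against WT on the left and H1L against WT on the right, with the probe sets of a gene numbered from the brightest. CD79B is the only filled point (adjusted p under 0.05), diamonds mark CD79B and the 3 VAV3 probe sets, which pass with the day as block in H1R against WT, and most other intervals include 0.

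All 22 probe sets passed the filter on dim signals. Their genes were chosen with earlier results of these data known, and the 3 VAV3 probe sets read the same gene. A count above the share of all probe sets or genes given beside it is therefore no test of these genes. For H1R against WT, 1 of 22 was called, and it was lower, where 1.16% of all probe sets tested were called and 0.577% lower. Blocking on the day gave 4 of 22, all lower (CD79B and 3 of VAV3), against 3.7% of all probe sets called and 1.54% called lower. The same 4 had an unadjusted p under 0.05 without the block, where 4.09% of all probe sets were lower at that level. By gene, on the brightest probe set, 1 of 9 was called, or 2 of 9 with the block, beside 1.71% and 5.02% of all genes. For H1L against WT the limma count was 0 of 22, with or without the block, where 0.2% of all probe sets were called without it and 0.508% with it. At an unadjusted p under 0.05, 5 of 22 were lower in H1L than in WT (CD79B, 3 of VAV3 and 1 of LYN), against 4.72% of all. For H1L against H1R the limma count was again 0 of 22, against 0.00434% of all probe sets, or 0.134% with the block. At an unadjusted p under 0.05, 1 of 22 was higher in H1L than in H1R (CD79B), against 1.23%.

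The separation of arrays was set beside its share over all probe sets. The H1R and WT arrays did not overlap for 5 of 22 probe sets and for 39.4% of all tested, and both H1R arrays were below both WT arrays for 4 of 22 and for 14.5% of all. The H1L array was below both WT arrays for 9 of 22 (39.1% of all) and above both for 5 of 22 (27.5% of all). By day, 11 of 22 were higher on the second day in both WT and H1R (44.9% of all), and 5 of 22 were lower in both (16.3% of all). Over the brightest probe sets of the 9 genes, the median difference for H1R against WT was 0.20, with 2 of 9 below 0, beside a median of 0.12 over 9962 genes tested. The corresponding medians for H1L against WT were 0.0023 and -0.047.

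**Figure D3:**
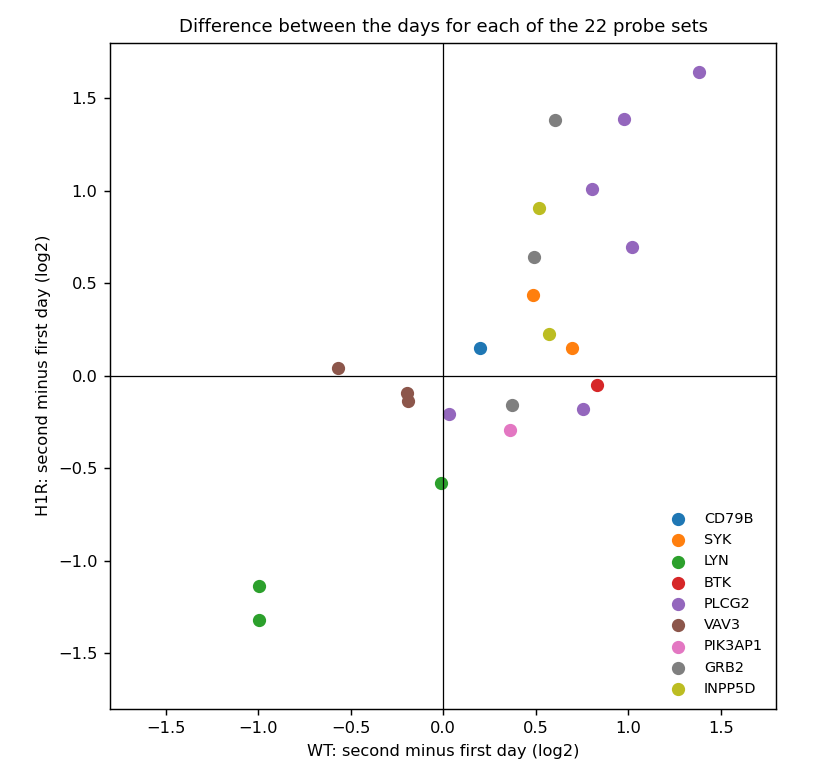
Difference between the second and the first day (log2) for each of the 22 probe sets, in WT on the horizontal and in H1R on the vertical axis. The 4 PLCG2 probe sets at the upper right exceed 0.69 on both axes and 2 LYN probe sets lie below -0.99 on both. The dimmer of these LYN probe sets was at background on the second day, so its differences depend on the pseudocount. CD79B and VAV3 lie close to 0 in H1R.

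The genes whose profile over the 5 arrays was most like that of CD79B were BAK1, GFPT2, HOXC13, HMGA2 and CSK. Likeness was the root mean square difference of log2 profiles centred on WT, over 5 arrays and 9704 genes. It was 0.061 for BAK1, a pro-apoptotic member of the BCL2 family that gave 145.3 and 161.2 in WT, 83.1 in H1L, and 45.6 and 53.7 in H1R. For GFPT2, an enzyme of hexosamine synthesis, it was 0.12, with 263.4 and 263.5 in WT, 132.9 in H1L, and 79.5 and 102.4 in H1R. CSK, the kinase that holds SRC family kinases inactive, was the only one of the 5 among the pathway lists described next, at a distance of 0.15. HOXC13 (0.13) and HMGA2 (0.15) were at or below the background limit on both H1R arrays, so their distances depend on the pseudocount. VAV3 was the 108th closest to CD79B and the other 7 genes were 3251st or farther.

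The pathway around these genes was described by 9 lists with 178 genes, of which 137 had a probe set and 120 a tested one. The lists were chosen with earlier results of these data known, so a share above that of all genes is no test of the pathway. For H1R against WT, 7 of 120 were called (5.83%), 4 higher and 3 lower, where 1.71% of all 9962 genes were called. With the day as block it was 18 of 120 (15%), 6 higher and 12 lower, against 5.02% of all genes. For H1L against WT, 1 of 120 was called (0.833%; 0.361% of all genes), and with the block 3 of 120 (2.5%; 0.833% of all genes). For H1L against H1R, limma called 0 of 120, where 0.01% of all genes were called, and 3 of 120 were higher and 7 lower at an unadjusted p under 0.05, beside 1.29% and 4.22% of all genes.

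SLA, a Src-like adaptor that lowers the surface level of antigen receptors in mammalian lymphocytes and is no kinase itself, stood in the list of SRC, SYK and TEC family kinases. It had the largest difference of the 120 genes from WT in both deletions. Its brightest probe set gave 7.7 and 22.5 in WT, 680 in H1L, and 1582.1 and 730.4 in H1R. Only 1 of the 2 WT arrays was above its background limit. The rise was 5.80 ± 0.49 in H1R (limma adjusted p = 0.00151) and 5.14 ± 0.60 in H1L (limma adjusted p = 0.0214). On the other 2 SLA probe sets both WT arrays lay at or below the limit, and the signal was at least 19.2-fold and at least 38.3-fold higher in H1R than in WT. All 3 probe sets were called in H1R, under every one of the 14 alternatives, and 2 of 3 in H1L. Both H1L calls were lost without WT replicate 1, with no filter on dim probe sets and without a variance trend. The highest limma adjusted p in H1L was 0.148 for the brightest SLA probe set and 0.107 for the other called one.

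The list of the receptor and coreceptors also held other genes, among them CXCR4. In it, 2 of 9 tested genes were called higher in H1R and 0 lower. With the day as block, 2 were called higher and 2 lower. Of all genes, 1.71% were called (83 higher, 87 lower), or 5.02% with the block (292 higher, 208 lower). CD5, an inhibitory coreceptor of T cells and some B cells, gave 17.7 and 36.1 in WT, 229.7 in H1L, and 246 and 208.3 in H1R. Only the second WT array of CD5 was above its limit. CD5 rose by 2.89 ± 0.37 in H1R (limma adjusted p = 0.0101). That call was lost without WT replicate 1, with no filter on dim probe sets and without a variance trend. The CD5 difference in H1R lay between 2.15 and 3.31 under the 14 alternatives. In H1L the CD5 difference was 2.91 ± 0.46 (limma adjusted p = 0.0825, or 0.0215 with the block). The chemokine receptor CXCR4 gave 217.1 and 280.7 in WT, 551.5 in H1L, and 752.4 and 1004.8 in H1R, and rose by 1.79 ± 0.31 in H1R (limma adjusted p = 0.0373). The CXCR4 call was lost when any 1 of the 4 WT and H1R arrays was left out. It was lost also with no filter on dim probe sets and without a variance trend. The CXCR4 difference lay between 1.59 and 2.00 under the 14 alternatives.

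The tetraspanin CD81 and the phosphatase PTPRC (CD45) were named here after their values were seen. They were called lower in H1R with the day as block and not in the main fit. For pathway genes without a call in the main fit, the other alternatives are not given here. CD81 gave 232.5 and 332.8 in WT, 131.9 in H1L, and 99.4 and 90.2 in H1R (-1.50, limma adjusted p = 0.0998, or 0.0148 with the block). PTPRC, which activates SRC family kinases, gave 1813.5 and 2059.1 in WT, 1113.5 in H1L, and 1156.6 and 988.4 in H1R (-0.85, limma adjusted p = 0.211, or 0.0384 with the block). CSK, which opposes it at those kinases, gave 240.2 and 226 in WT, 147.6 in H1L, and 89.1 and 95.3 in H1R (-1.29 ± 0.30, limma adjusted p = 0.128, or 0.022 with the block). In each of these 3 genes, the H1L array and both H1R arrays lay below both WT arrays. Of all tested probe sets, 14.5% had both H1R arrays and 39.1% had the H1L array below both WT arrays. The 3 genes were picked by their values or low p, so their separation is no test.

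PRKCD, a protein kinase C that in mammals restrains B cell responses, had the lowest difference among the 120 genes in H1R against WT. It stood in the list of the NF-kB branch, where it was the 1 call among 18 tested genes (1.71% of all genes were called). It gave 606.2 and 786.1 in WT, 147.2 in H1L, and 101.6 and 65.8 in H1R. The fall in H1R was -2.99 ± 0.34 (limma adjusted p = 0.00594, and 0.0517 without WT replicate 1 or 0.055 without WT replicate 2). In H1L the PRKCD difference was -2.19 ± 0.42 (limma adjusted p = 0.168, or 0.0483 with the block). TNFAIP3, an inhibitor of NF-kB, lay at or below the background limit on both WT arrays and was at least 1.48-fold higher in H1R, without a call.

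Of the phosphatases and inhibitors, 1 of 11 tested genes was called in H1R, beside 1.71% of all genes. PTPN7, a tyrosine phosphatase of lymphocytes that acts on MAP kinases, gave 112.1 and 156 in WT, 82.3 in H1L, and 28.7 and 29.3 in H1R, of which the second lay below its limit. The fall of PTPN7 was -1.99 ± 0.33 (limma adjusted p = 0.0326). Its call was lost without either WT replicate or without H1R replicate 1. It was lost also with no filter on dim probe sets and without a variance trend. The PTPN7 difference lay between -2.22 and -1.43 under the 14 alternatives. PTPN6 (SHP-1), the phosphatase that acts downstream of inhibitory receptors, gave 325.3 and 589.7 in WT, 777.1 in H1L, and 1221.9 and 1126.4 in H1R. It was called higher with the block and not in the main fit (1.41 ± 0.33, limma adjusted p = 0.13, or 0.0148 with the block). INPPL1 (SHIP2), a relative of INPP5D, was at least 1.70-fold lower in H1R than in WT. It was called with the block (limma adjusted p = 0.0411) and not in the main fit.

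Among 15 adaptors and scaffolds, GAB3 was the 1 call in H1R, where 1.71% of all genes were called. It gave 352.5 and 327.5 in WT, 170.7 in H1L, and 106.1 and 98.1 in H1R. GAB3, a docking protein of the GAB family, fell by 1.68 on the log2 scale (SE 0.30, limma adjusted p = 0.0471). Its other probe set differed by -0.81 without a call. The GAB3 call held under 7 of 14 alternatives. It was lost without any 1 of the WT and H1R arrays. It was lost also with a pseudocount of 1, with no filter on dim probe sets and without a variance trend. BANK1, a scaffold that B cells use between LYN and calcium release, was at or below the limit on both H1R arrays. It was at least 2.37-fold higher in WT, and was called with the block (limma adjusted p = 0.0373) and not in the main fit.

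In the phosphoinositide 3-kinase branch 1 of 14 genes was called in H1R, beside 1.71% of all genes. FOXO3, a transcription factor that AKT keeps out of the nucleus, gave 18.4 and 4.7 in WT, 44.5 in H1L, and 92.6 and 361.6 in H1R. Both WT arrays were below the limit, so FOXO3 was at least 7.32-fold higher in H1R (limma adjusted p = 0.0487), on 1 of 3 probe sets. The other FOXO3 probe sets differed by 0.72 and 0.03, and the call was lost without either WT replicate (limma adjusted p = 0.124 and 0.244) and without H1R replicate 2 (0.0504). It held under 6 of 14 alternatives, and was lost also with either other pseudocount, with no filter or the stricter one, and without a variance trend. Of the catalytic and regulatory subunits of the kinase itself, none was called in limma. The largest differences at signals above background were those of PIK3CG in H1R (-0.92), named after its values were seen, and PIK3R1 in H1L (-1.22). PIK3CB lay below the background limit on both WT arrays and was at least 1.68-fold higher in H1R, without a call.

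No gene of the VAV and RAC branch (9 tested), of the calcium and NFAT branch (18) or of the RAS and MAP kinase branch (17) was called in either deletion without the block. At an unadjusted p under 0.05 in H1R these 3 branches held, in that order, 0, 2 and 2 higher genes, where 7.56% of all genes were higher at that level, and 1, 2 and 2 lower genes, where 4.45% were lower. In H1L they held 0, 1 and 0 higher genes (2.61% of all genes) and 0 lower genes (5.13%). VAV2, a relative of VAV3, gave 110.6 and 170.4 in WT, 119.7 in H1L, and 63.5 and 60.8 in H1R (-1.08 ± 0.34, limma adjusted p = 0.285). TRPC1, a cation channel, gave 190.9 and 323.2 in WT, 410.1 in H1L, and 644.9 and 642.5 in H1R, and was called higher with the block (1.35 ± 0.34, limma adjusted p = 0.149, or 0.0168 with the block). MAP3K1, a kinase upstream of JNK, gave 473.3 and 457.3 in WT, 285.4 in H1L, and 226.8 and 247.7 in H1R. It was called lower with the block and not in the main fit (-0.96 ± 0.29, limma adjusted p = 0.259, or 0.0494 with the block). CAMK2D, RASGRP3 and, among the kinases, PTK2B were named after their values were seen. They were also called lower in H1R with the block and not in the main fit. CAMK2D differed by -1.36 (limma adjusted p = 0.481, or 0.0431 with the block), at 362.8 and 581 in WT and 87.9 and 345.6 in H1R. RASGRP3 differed by -1.20 (limma adjusted p = 0.443, or 0.0315 with the block). PTK2B differed by -1.77 (limma adjusted p = 0.131, or 0.0415 with the block), with the second H1R array (19.3) below its limit.

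**Figure D4:**
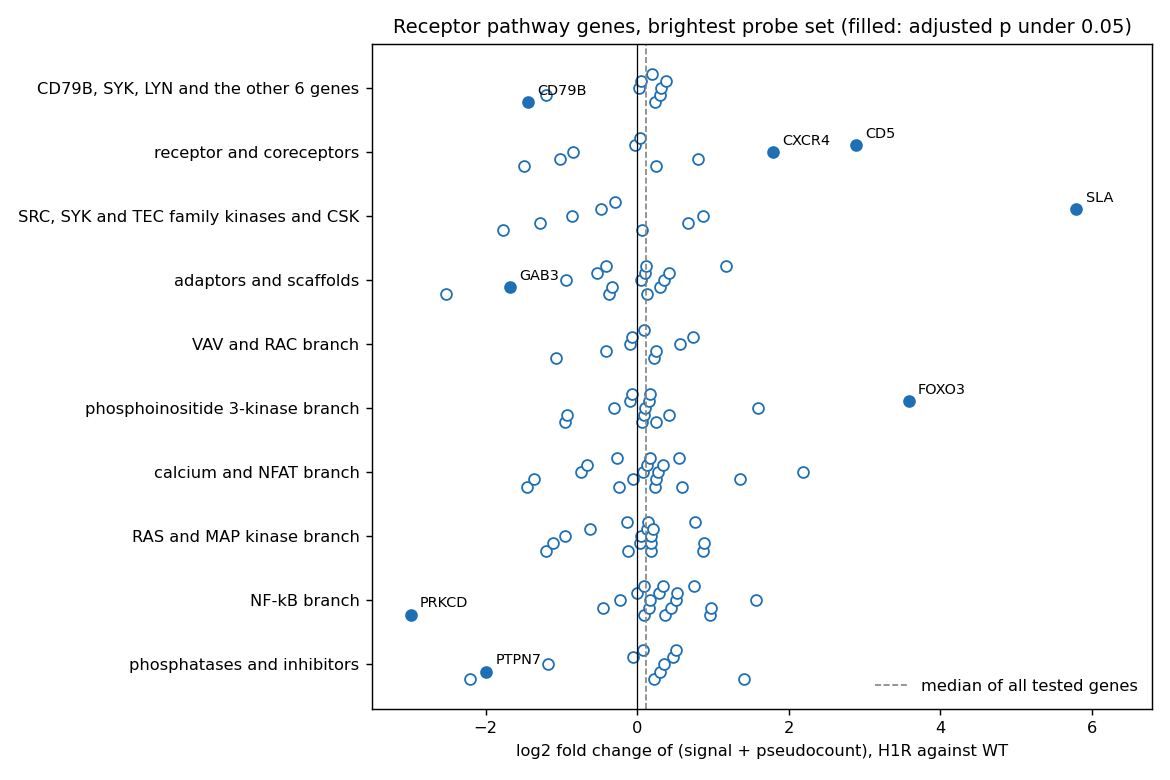
Log2 fold change of (signal + pseudocount) for H1R against WT of the brightest tested probe set of each gene, by list, with the 9 genes of the receptor in the top row, filled and named where the adjusted p was under 0.05. The dashed line is the median of all tested genes (0.12). SLA at 5.80 and PRKCD at -2.99 lie farthest out. Points of genes at background in 1 group, such as FOXO3, are fitted values that depend on the pseudocount.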

How the data were processed

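The authors deposited 1 linear signal intensity per probe set and array, computed in GCOS according to the submitters' processing notes. Its version and scaling target are not given in the sources used here. Trimmed means (2%) ranged from 121 to 154, so no common target was met, and signals were used as deposited.

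Affymetrix controls (96 probe sets) were dropped. In the probe table, 27168 of the other 38439 have 1 symbol, 177 have several and 11094 have none. Chromosomes are from RefSeq GRCg7b, matched by gene number. Tests used log2(signal + 5.7), with the 25th percentile of all signals as pseudocount, which shrinks the changes of dim probe sets. A mean signal above 13.4, the 40th percentile, was required (23053 probe sets, 9962 named genes, each by its brightest probe set).

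All 5 arrays entered 1 limma fit (version 3.58.1, R 4.3.3) with a mean per group and trended eBayes variances (2 residual and 6.02 prior degrees of freedom). Benjamini-Hochberg adjustment ran over the tested probe sets of a comparison, and 0.05 was the threshold. For the single H1L array the variance of the other groups is assumed. Errors after ± are standard errors unless marked SD. Same-numbered WT and H1R replicates share a day in the labels and so are pairs (their deviations correlated at 0.19). A fit with the day as block (1 residual and 8.33 prior degrees of freedom) stands beside the main one.

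A signal at or below an array's highest among 23 negative control probe sets was taken as background, a limit chosen after the data were seen. Where all arrays of a group lay there, a bound replaces the fold: the mean log2 signal of the brighter group against the dimmer group's mean, in which each array counts at its limit or at its own signal if that is higher. No pair of arrays shared more than 0.859% of identical signals. Every probe set of the 9 genes is given. Of the other pathway genes, those called in any comparison and the 2 of lowest p per list in H1R and in H1L against WT could be named. The likeness rule took the 5 genes closest to each gene called among the 9. The genes and lists were chosen with earlier results of these data known. Alternatives were other scalings (quantile, median, trimmed mean and, added after the data were seen, hybridisation spikes), pseudocounts of 1 and 32, no filter or one at the 60th percentile, no variance trend, the day block and leaving out each replicate.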

Additional observations from a re-analysis of the deposited data

How the results depend on the processing

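With 5 arrays and 2 residual degrees of freedom, moderate differences would not pass the threshold, and background limits what dim probe sets show. The count of the 22 probe sets called in H1R against WT was 1, and it became 2 with quantile normalization and with a pseudocount of 32, 3 with scaling to the same median or the same trimmed mean, 0 with no filter or with no variance trend, and 4 with the replicate block of the paired days. Leaving out 1 replicate gave counts from 0 to 1. The counts for H1L against WT and H1L against H1R were 0 under all 14 alternatives. More tests without the filter, and fewer arrays in a left-out fit, are part of those settings' construction. The cause of the other shifts was not tested. The block gave calls to the 3 VAV3 probe sets and changed no other call of the 22.

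Scaling moved the median of all probe sets for H1L against H1R from -0.15 as deposited to -0.0040 (quantile) and 0.036 (trimmed mean), and for H1R against WT from 0.090 to 0.013 and -0.023. The following uncalled differences near 0 changed sign. For LYN in H1R against WT, quantile, median and trimmed mean scaling gave -0.11, -0.028 and -0.11, and leaving out replicates -0.27 to 0.31. For BTK in H1R against WT they gave -0.094, -0.0010 and -0.078, and -0.37 to 0.46. For PLCG2 in H1L against H1R, quantile and trimmed mean scaling gave 0.088 and 0.036. The block gave -0.21 for SYK and -0.0089 for PLCG2 in H1L against WT and -0.033 for BTK in H1L against H1R. Leaving out replicates gave -0.35 to 0.35 for SYK, -0.21 to 0.63 for BTK and -0.24 to 0.51 for PLCG2 in H1L against WT, -0.079 to 0.68 for PLCG2 and -0.050 to 0.52 for INPP5D in H1R against WT, and -0.12 to 0.17 for PIK3AP1 in H1L against H1R.

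Over all probe sets the H1R against WT count of 267 became 102 with no filter, 141 with no trend, 854 with the block, and 81 and 147 without WT replicate 1 and 2. The H1L against WT count of 46 became 70 (median scaling), 27 (pseudocount 1), 10 (no filter), 0 (no trend), 117 (block) and 2, 28, 120 and 126 with a WT or H1R replicate left out. The H1L against H1R count of 1 ranged from 0 to 32. Groups of 1 or 2 arrays allow no check for an outlying array.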
